A study of Mus musculus with 10 samples.

Results

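Of the 10 genes of MHC class II antigen presentation examined here, 9 were measured among the 22180 genes of the series. They were chosen by symbol: H2-Aa, H2-Ab1, H2-Eb1, H2-DMa, H2-DMb2, H2-Oa, Ciita, Ctss and Ifi30 each had a probe set whose annotation names that gene alone. The tenth, the invariant chain gene Cd74, shares its probe set's annotation with a second gene and was not analysed here. The series compared jejunum of female mice, 10 to 12 weeks old, with 1 Affymetrix whole-transcript array per sample. Both groups carried Pcyt1aLoxP/LoxP, and the 5 knockouts (arrays 1 to 5) also carried VilCreERT2, a tamoxifen-inducible Cre driven by the promoter of villin, a gene of the gut epithelium. Cells of the piece that do not express villin, among them lymphocytes and macrophages, keep the gene. The 5 controls (arrays 6 to 10) had the floxed alleles alone. All mice received tamoxifen for 5 days, a high fat diet for 4 days and an overnight fast before a 3 cm piece of the mid small intestine was frozen. Strain and litter are not given in the sources used here, nor whether each sample is a separate mouse, and the p-values cover only the variation among these 10 arrays. One label field calls the control tissue deficient in phosphatidylcholine synthesis, in conflict with the titles and genotypes used for grouping, and the series text mentions re-feeding where the sample labels mention fasting.

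Class II molecules are pairs of an alpha and a beta chain that carry peptides from endosomes to the cell surface, where CD4 T cells read them. The chains are loaded in endosomes, where cathepsins trim the invariant chain, H2-DM exchanges its remnant for peptide, and H2-O restrains H2-DM. B cells and dendritic cells make most of these genes constitutively, and macrophages to a degree that varies. Interferon gamma can switch class II genes on in other cells through the co-activator CIITA, including epithelial cells of the small intestine. CIITA binds no DNA itself and is held at class II promoters by factors on the X box and the Y box.

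Promoter sequences, taken from the RefSeq table of the assembly GRCm38.p6 (C57BL/6J), were available for 7 of the 10 genes and for 3 of the other class II chains and chaperones. They are shown because the same arrangement of boxes precedes genes that behaved differently over the arrays. Each stretch is written 5′ to 3′ on the gene's strand, and capitals mark the core of the X box searched (CNNGCAAC) and the core of the Y box (TGATTGG), on either strand. All H2 genes listed lie on chromosome 17. The stretches are chr17:34287855-34287919 (minus strand) for H2-Aa, chr17:34305761-34305824 (plus) for H2-Eb1, chr17:34092288-34092352 (plus) for H2-Oa, chr17:34238803-34238864 (plus) for H2-Ob, chr17:34325528-34325591 (plus) for H2-Eb2 and chr17:34145112-34145175 (plus) for H2-DMb2.
H2-Aa: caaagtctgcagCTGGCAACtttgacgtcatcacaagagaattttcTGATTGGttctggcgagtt
H2-Eb1: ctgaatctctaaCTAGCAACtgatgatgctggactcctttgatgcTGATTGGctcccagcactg
H2-Oa: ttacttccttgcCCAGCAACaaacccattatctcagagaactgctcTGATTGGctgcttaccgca
H2-Ob: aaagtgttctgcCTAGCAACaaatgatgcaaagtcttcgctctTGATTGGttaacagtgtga
H2-Eb2: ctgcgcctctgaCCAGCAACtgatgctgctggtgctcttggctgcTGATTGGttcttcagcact
H2-DMb2: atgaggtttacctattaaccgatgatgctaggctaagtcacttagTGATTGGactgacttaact

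The boxes stood in the same order in the first 5 of these promoters, with 23 to 26 bases between them. The X core began 84 bases before the start site in H2-Aa, 94 in H2-Eb1, 79 in H2-Oa, 90 in H2-Ob and 135 in H2-Eb2. Over all 32851 promoters of the table, within the 250 bases before the start, 9.26% held the X core, 7.23% the Y core and 0.0761% (25 promoters of 20 genes) an X core followed by a Y core at 10 to 30 bases. The motif letters and the spacing were settled after several patterns had been tried with these sequences in view, so the shares are a description. In H2-DMb2 only the Y core was found by this search, 92 bases before the start site used. That start site lies inside the gene, which begins at 34143229 on chromosome 17. Of the 7 class II presentation genes with a promoter sequence, 3 held the spaced pair. The promoters of H2-DMa and Ifi30 held neither core.

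The Ctss promoter held neither core and is shown for another motif in capitals, the core of an interferon-stimulated response element: GAAA, any pair of bases, and GAAA again, on either strand. It began 21 bases before the start site and was found in 2.98% of all promoters. The stretch is chr3:95526735-95526785 on the plus strand.
Ctss: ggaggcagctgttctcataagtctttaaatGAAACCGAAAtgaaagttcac

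Pcyt1a was lower on every knockout array (7.14 to 7.80, log2 intensity) than on every control array (9.18 to 9.55), which put the knockouts at 0.262 times the control level (limma adjusted p = 9.577e-05). The median log2 intensity over all genes was 5.77 to 5.89 on every array. Of 14 measured enterocyte markers 0 passed (limma), 8 had negative log2 fold changes and the median was -0.05, with a list score of -0.14 to 0.12 on knockouts and -0.06 to 0.14 on controls. The most negative was the lactase gene Lct, at 12.14 in knockouts and 12.60 in controls (limma adjusted p = 0.182). Controls 8 and 9 stood apart in B cell markers: the score of that list, the mean of its members' centred log2 values, was 1.48 and 1.24 there, against -0.46 to -0.14 on the other 8 arrays. All 14 measured B cell markers were higher on both of these arrays than on any other, as were 1.97% of all genes. Control 7, control 9 and knockout 1 were likewise highest in smooth muscle markers, with scores of 2.61, 1.35 and 0.72 against -0.98 to -0.32 on the others. Values without such arrays are given beside the results they moved most. In pieces of whole jejunum, fewer cells of a type and less RNA per cell cannot be told apart.

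No member passed the comparison of knockout with control. Of the 9 members, 0 had an adjusted p under 0.05 and 0 an unadjusted p under 0.05 (limma), against 0.0271% and 13.9% of all 22180 genes. The smallest adjusted p among them was 0.428, for H2-Aa. The groups did not overlap for 0 members, against 2.60% of all genes (1.64% higher and 0.965% lower in knockouts). Log2 fold changes, given throughout as knockout minus control, were positive for 5 members and negative for 4, from -0.77 to 0.47, with a median of 0.03 against -0.01 over all genes. The 95% intervals were narrowest for Ifi30 (-0.26 to 0.15) and Ctss (-0.18 to 0.25) and widest for H2-DMb2 (-1.83 to 0.28) and H2-Aa (-0.07 to 1.01).

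**Figure D1:**
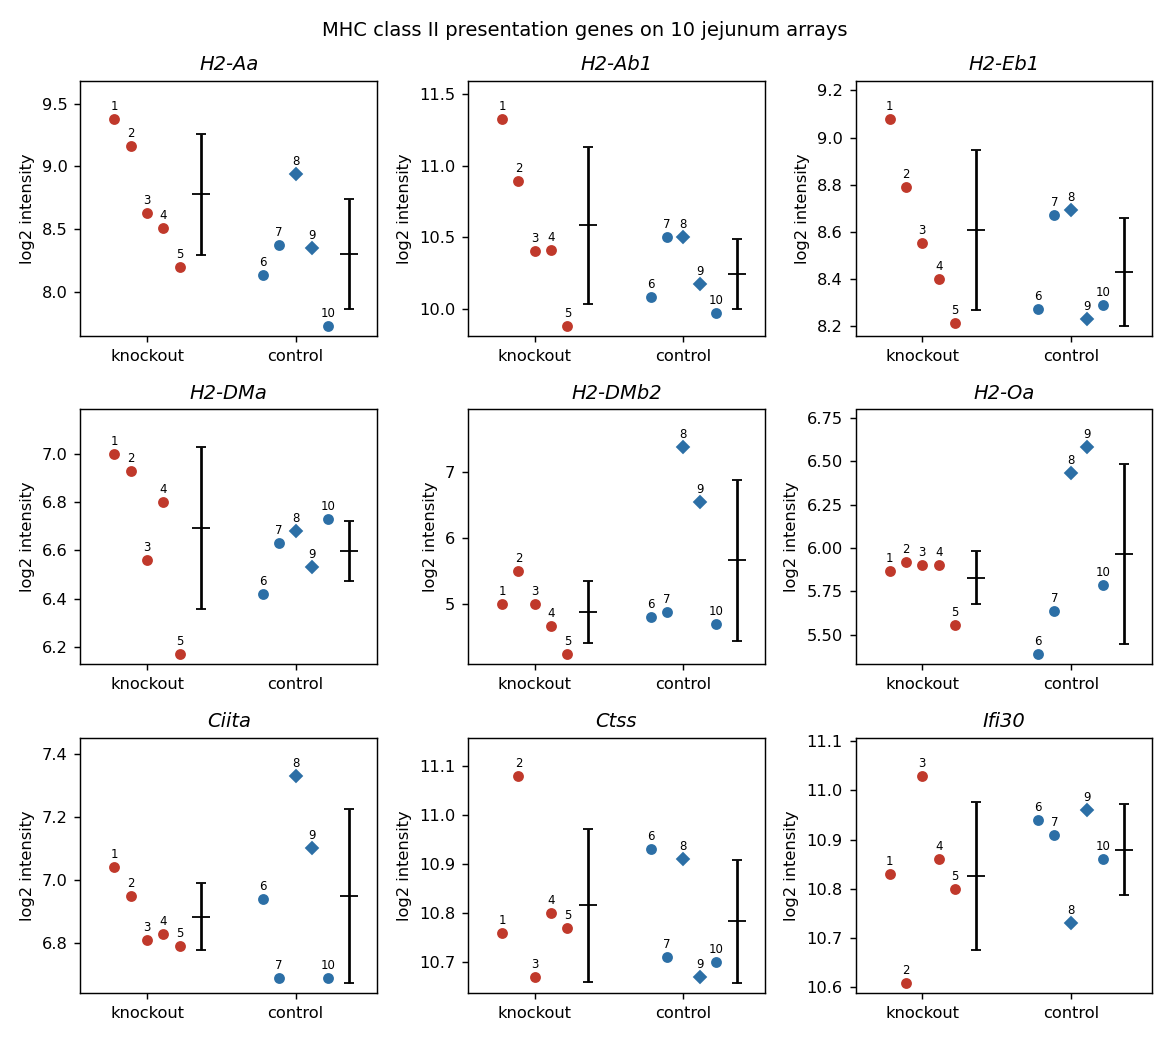
Log2 intensity (vertical axis) of the 9 measured class II presentation genes, 1 panel each, in 5 knockout arrays (red) and 5 control arrays (blue). Numbers are array numbers, diamonds mark controls 8 and 9, and black marks give the mean and SD of each group. H2-Aa, H2-Ab1 and H2-Eb1 are highest on knockout 1, while H2-DMb2, H2-Oa and Ciita are highest on controls 8 and 9.

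**Figure D2:**
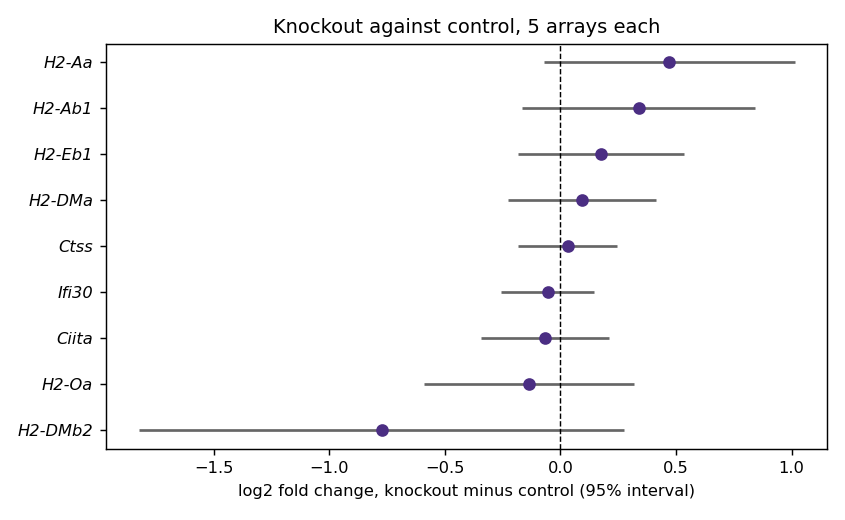
Log2 fold change of the 9 genes, knockout minus control (points), with 95% intervals from limma (lines), 5 arrays a group. Every interval includes 0, and that of H2-DMb2 is the widest.

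H2-Aa encodes the alpha chain of the classical I-A molecule. Its log2 intensities were 9.38, 9.16, 8.63, 8.51 and 8.20 on knockouts 1 to 5, and 8.13, 8.37, 8.94, 8.35 and 7.73 on controls 6 to 10. Knockouts 1 and 2 were the highest of all arrays and control 10 the lowest, and the groups overlapped. Knockouts averaged 8.78 ± 0.48 and controls 8.30 ± 0.44 (SD, n = 5 each). The difference of 0.47 in log2 units, or 1.39 times the control level, had an SE of 0.25 and did not pass (limma adjusted p = 0.428). Without controls 8 and 9 it was 0.70 (unadjusted p = 0.0248, limma adjusted p = 0.312), and without control 7, control 9 and knockout 1 it was 0.36.

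H2-Ab1 encodes the beta chain that pairs with it. It read 11.33, 10.89, 10.40, 10.41 and 9.88 on the knockouts and 10.08, 10.50, 10.50, 10.17 and 9.97 on the controls. Knockout 1 was the highest and knockout 5 the lowest array of all, so the knockouts spanned the whole range of the controls. Knockouts averaged 10.58 ± 0.55 and controls 10.24 ± 0.24 (SD, n = 5 each), a difference of 0.34 (SE 0.23; limma, adjusted p = 0.548). It was 0.15 without knockout 1, 0.51 without knockout 5 (limma adjusted p = 0.313) and 0.21 without control 7, control 9 and knockout 1.

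H2-Eb1, the beta chain of I-E, read 9.08, 8.79, 8.55, 8.40 and 8.21 on the knockouts and 8.27, 8.67, 8.69, 8.23 and 8.29 on the controls. Knockouts 1 and 2 were again the highest. Knockouts averaged 8.61 ± 0.34 and controls 8.43 ± 0.23 (SD, n = 5 each), a difference of 0.18 (SE 0.16; limma, adjusted p = 0.674). It was 0.06 without knockout 1, 0.28 without knockout 5 and 0.07 without control 7, control 9 and knockout 1. H2-Ea, the gene of the partner alpha chain of I-E, lay at 3.30 to 4.10 over the 10 arrays.

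The 3 classical chains varied together over the 10 arrays. Pearson r between the genes of a pair was 0.91 for H2-Aa with H2-Ab1, 0.87 for H2-Aa with H2-Eb1 and 0.96 for H2-Ab1 with H2-Eb1, given without p because the arrays share tissue makeup and normalization. The spread within the knockouts, from the highest to the lowest array, was wider than the difference between the group means for each of them. Among the other 22171 genes, those most like the mean of the 3 chains (Pearson r over the 10 arrays, given without p) were Cdc42 (0.98), Ccm2 (0.95), Calcrl and Icam1 (0.91 each), Lpcat1 (0.91), Vcam1 and Sgpp2 (0.90 each) and St6gal1 (0.90). The highest of 22171 values of r over 10 arrays are large even for unrelated genes, so this ranking is a description. Icam1 and Vcam1 encode adhesion molecules to which leukocytes bind, and Calcrl a receptor subunit found on endothelium. Cdc42, a small GTPase, moved over a narrow range, from 11.71 on control 10 to 11.90 on knockout 1.

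Markers of several other cell types varied in the same direction as the classical chains. Over the 10 arrays, H2-Aa correlated with the macrophage list score at Pearson r = 0.794 (permutation p = 0.00612, adjusted 0.0757) and Spearman rho = 0.842 (permutation p = 0.00373, adjusted 0.0581), with adjustment over the 99 pairs of a member and a marker list. Without knockout 2 and control 10, the arrays farthest from the median score, r was 0.629. H2-Ab1 gave r = 0.734 (permutation p = 0.0166, adjusted 0.153) and H2-Eb1 r = 0.718 (permutation p = 0.0186, adjusted 0.153). Plasma cell markers gave the highest Pearson r with H2-Aa of the 11 lists, 0.813 (permutation p = 0.00458, adjusted 0.0648), with rho = 0.745 (permutation p = 0.0176, adjusted 0.134) and r = 0.714 without controls 8 and 10. The list of group 3 innate lymphoid cells gave r = 0.736 with H2-Aa (permutation p = 0.0143, adjusted 0.153), which was 0.468 without knockout 5 and control 10. The dendritic cell list gave r = 0.554 with H2-Aa (permutation p = 0.0995, adjusted 0.308). It gave 0.584 with H2-Ab1 (permutation p = 0.0762, adjusted 0.2795) and 0.596 with H2-Eb1 (permutation p = 0.0688, adjusted 0.275). None of these passed after adjustment. The macrophage score was -0.05 to 0.43 on knockouts and -0.32 to 0.06 on controls, and 2 of its 19 members had negative log2 fold changes, Mertk (-0.38) and Maf (-0.29), while the complement gene C1qb was at 0.71. The macrophage score itself differed on average between the groups (0.13 in knockouts, -0.13 in controls), so a fit with it as a covariate cannot part it from genotype. With this score as a covariate the log2 fold change of H2-Aa was -0.03 (SE 0.24), that of H2-Ab1 -0.10 (SE 0.24) and that of H2-Eb1 -0.13 (SE 0.17). With the B cell score in its place they were 0.74 (unadjusted p = 0.0145, limma adjusted p = 0.275), 0.43 and 0.22. The B cell score also differed on average between the groups (-0.35 in knockouts, 0.35 in controls), through controls 8 and 9. This fit therefore cannot part it from genotype either. Endothelial markers moved with these chains too: their score was -0.05 to 0.54 on knockouts and -0.78 to -0.02 on controls. Of 12 such markers 0 passed (limma) and 11 had positive log2 fold changes, against 10388 of all 22180 genes. The endothelial score also differed on average between the groups (0.26 in knockouts, -0.26 in controls), so correlations with it mix in that difference. For H2-Aa the correlation with it was r = 0.668 (permutation p = 0.0332, adjusted 0.182) and rho = 0.867 (permutation p = 0.00224, adjusted 0.0581), and r = 0.823 without knockout 2 and control 9. The part of macrophages and of dendritic, plasma, innate lymphoid and endothelial cells in the levels of the classical chains was not tested. With each group's mean taken out, r for H2-Aa over the 10 arrays was 0.715 with macrophages, 0.792 with plasma cells and 0.516 with endothelium, while 5 arrays are too few for a correlation in each group.

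H2-DM, the peptide exchange factor, is made of an alpha chain (H2-DMa) and a beta chain that mouse has as a pair of genes, H2-DMb1 and H2-DMb2. H2-DMa read 7.00, 6.93, 6.56, 6.80 and 6.17 on the knockouts and 6.42, 6.63, 6.68, 6.53 and 6.73 on the controls. The controls lay between 6.42 and 6.73, inside the wider range of the knockouts. Knockouts averaged 6.69 ± 0.34 and controls 6.60 ± 0.12 (SD, n = 5 each), a difference of 0.09 (SE 0.15; limma, adjusted p = 0.820). It was 0.02 without knockout 1, 0.22 without knockout 5 and 0.005 without control 7, control 9 and knockout 1. Its r with H2-Ab1 was 0.81.

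H2-DMb2 read 5.01, 5.50, 5.01, 4.67 and 4.25 on the knockouts and 4.81, 4.89, 7.37, 6.54 and 4.70 on the controls. Controls 8 and 9 stood above all other arrays, which lay between 4.25 and 5.50, and the highest array was 8.69 times the lowest. Knockouts averaged 4.89 ± 0.46 and controls 5.66 ± 1.22 (SD, n = 5 each), a difference of -0.77 (SE 0.48; limma, adjusted p = 0.510). Without controls 8 and 9 it was 0.09 (adjusted p = 0.897), and without control 8 alone -0.35. Its SD over the 10 arrays was larger than that of 99.5% of all genes. H2-DMb1, its near-identical neighbour, from which the probes may not fully separate it, lay at 3.96 to 4.70 on all arrays and was at 4.70 and 4.42 on controls 8 and 9.

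H2-O, the inhibitor of H2-DM, is made of H2-Oa and H2-Ob and is known from B cells and thymus. H2-Oa read 5.87, 5.92, 5.90, 5.90 and 5.56 on the knockouts and 5.39, 5.64, 6.43, 6.58 and 5.79 on the controls. Controls 8 and 9 were again the highest of all arrays and control 6 the lowest. Knockouts averaged 5.83 ± 0.15 and controls 5.97 ± 0.52 (SD, n = 5 each), a difference of -0.14 (SE 0.21; limma, adjusted p = 0.814), which became 0.22 (adjusted p = 0.476) without controls 8 and 9 and 0.02 without control 9 alone. Its partner H2-Ob, outside the 10 genes, was at 6.58 and 6.52 on these arrays and at 5.16 to 5.65 on the others, and the class II beta chain gene H2-Eb2 at 6.59 and 6.25 against 4.77 to 5.21.

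**Figure D3:**
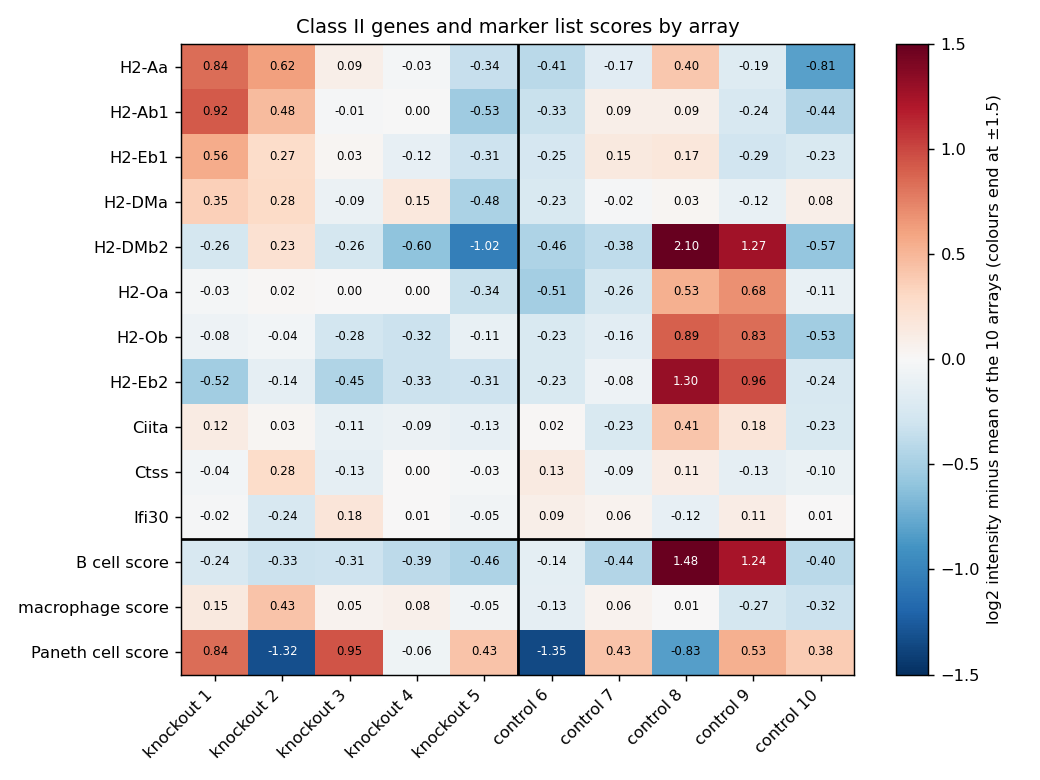
Log2 intensity minus the mean of the 10 arrays, for class II genes (rows above the line, with H2-Ob and H2-Eb2 added) and for 3 marker list scores (rows below it), with arrays in columns and the groups parted by the vertical line. Controls 8 and 9 are highest for H2-DMb2, H2-Oa, H2-Ob, H2-Eb2, Ciita and the B cell score, while knockouts 1 and 2 are highest for H2-Aa, H2-Ab1 and H2-Eb1.

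H2-DMb2 and H2-Oa were highest on other arrays than the classical chains. Of the spaced X and Y cores printed above, those of H2-Oa, H2-Ob and H2-Eb2 precede genes highest on controls 8 and 9, and those of H2-Aa and H2-Eb1 genes highest on knockouts 1 and 2. Of the 9 members, 3 (H2-DMb2, H2-Oa and Ciita) were higher on both control 8 and control 9 than on the other 8 arrays, against 1.97% of all genes. These arrays were picked for their B cell markers, and the counts are a description without a test. Among the 77 other genes of the pathway lists, 5 did the same: H2-Eb2, H2-Ob, the aspartic protease Napsa, the class I-like gene H2-M3 and the costimulatory receptor Cd40. Pearson r over the 10 arrays was 0.87 for H2-DMb2 with H2-Oa and 0.18 with H2-Ab1. Over the 8 arrays without controls 8 and 9, added after these values were seen, the order turned: r was 0.50 with H2-Oa and 0.70 with H2-Ab1. In a search added after these values were seen, the genes most like H2-DMb2 were Mef2c (r = 0.97), the B cell receptor-associated lectin Cd22 (0.97), the B cell scaffold Bank1 (0.97) and the antigen receptor subunit Cd79a (0.96), followed by Tnfrsf13c (0.95), the receptor for the B cell survival factor BAFF. These values lean on controls 8 and 9: without them r was 0.85 for Mef2c, 0.70 for Cd22, 0.68 for Bank1, 0.72 for Cd79a and 0.49 for Tnfrsf13c. The B cell markers Cd37 and Bank1 were at 7.94 and 8.48 on control 8, at 8.15 and 7.64 on control 9 and at 6.39 to 6.86 and 5.21 to 6.47 on the others. With the B cell score as a covariate the log2 fold change was 0.12 for H2-DMb2, 0.21 for H2-Oa and 0.13 for Ciita. That score differed between the groups through controls 8 and 9, so the fit cannot part it from genotype.

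Ciita, the master co-activator of class II transcription, read 7.04, 6.95, 6.81, 6.83 and 6.79 on the knockouts and 6.94, 6.69, 7.33, 7.10 and 6.69 on the controls. Controls 8 and 9 were the highest arrays and controls 7 and 10 the lowest. Knockouts averaged 6.88 ± 0.11 and controls 6.95 ± 0.27 (SD, n = 5 each), a difference of -0.07 (SE 0.13; limma, adjusted p = 0.858), which was 0.11 (adjusted p = 0.684) without controls 8 and 9 and 0.03 without control 8 alone. Because these arrays form a cluster of their own in B cell score, no correlation over all 10 is given. Over the other 8 arrays, Ciita correlated with the B cell score at Pearson r = 0.757 (exact permutation p = 0.0301) and Spearman rho = 0.754 (exact permutation p = 0.038), with adjusted p of 0.654 and 0.513 over 27 such relations within a subset of arrays, and r was 0.622 without the 2 arrays farthest from the median. H2-DMb2 gave r = 0.397 (exact permutation p = 0.324, adjusted 0.779) and H2-Oa r = -0.194 (exact permutation p = 0.648, adjusted 0.804) over these 8 arrays, but r for H2-Oa was 0.886 without the 2 farthest arrays, so no relation could be read at this number of arrays. For H2-Aa over the same arrays r was 0.302 (exact permutation p = 0.468, adjusted 0.779).

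Ctss encodes cathepsin S, the protease that trims the invariant chain in antigen-presenting cells. It read 10.76, 11.08, 10.67, 10.80 and 10.77 on the knockouts and 10.93, 10.71, 10.91, 10.67 and 10.70 on the controls, all between 10.67 and 11.08. Knockouts averaged 10.82 ± 0.16 and controls 10.78 ± 0.13 (SD, n = 5 each), a difference of 0.03 (SE 0.10; limma, adjusted p = 0.917) that was -0.03 without knockout 2. Ctss was highest on knockout 2, control 6 and control 8, the arrays lowest in Paneth cell markers, whose scores were -1.32, -1.35 and -0.83 against -0.06 to 0.95 on the others. Those 3 arrays were also the highest in T cell and intraepithelial lymphocyte markers, with scores of 0.49, 0.35 and 0.44 against -0.57 to 0.05 on the others. Because the same 3 arrays stand apart in both scores, values over all 10 lean on them and are given beside those without them. Over all 10, r with the T cell score was 0.902 (permutation p = 1.6e-04, adjusted 0.00891) and rho 0.930 (permutation p = 3e-04, adjusted 0.0297). That r was 0.927 without knockouts 2 and 3. With the Paneth score r was -0.916 (permutation p = 4.9e-04, adjusted 0.0162) and rho -0.833 (permutation p = 0.00411, adjusted 0.0581). The Paneth r was -0.851 without knockout 2 and control 6. Over the 7 other arrays r was -0.544 with the Paneth score (exact permutation p = 0.217, adjusted 0.779) and 0.743 with the T cell score (exact permutation p = 0.0484, adjusted 0.654), and rho was -0.541 (exact permutation p = 0.218, adjusted 0.697) and 0.829 (exact permutation p = 0.0302, adjusted 0.513). Without the 2 farthest of these arrays r was 0.377 with the Paneth score and 0.503 with the T cell score, but the arrays left are too few to read either relation. Of the 99 relations over 10 arrays, 5 passed after adjustment by Pearson's r and 1, Ctss with T cells, by Spearman's rho. Of the 5, those of H2-DMb2 and Ciita with B cells and of Ctss with Paneth and T cells have arrays that stand apart. The remaining one is Ctss with dendritic cells. In that score knockout 2, control 6 and control 8 were at 0.18, 0.15 and 0.09, against -0.17 to 0.11 on the others. No correlation without these 3 arrays was computed for it, so it may lean on them as well. With the dendritic cell score, which was -0.13 to 0.18 on knockouts and -0.17 to 0.15 on controls, r over the 10 arrays was 0.836 (permutation p = 0.00166, adjusted 0.0343). Spearman rho was 0.827 (permutation p = 0.00507, adjusted 0.0627), and r was 0.750 without knockout 2 and control 9. Enterocyte markers gave r = 0.806 with Ctss (permutation p = 0.00359, adjusted 0.0592) and rho = 0.833 (permutation p = 0.00411, adjusted 0.0581), and r = 0.786 without knockout 3 and control 6. Knockout 2, control 6 and control 8 were highest in this score too, at 0.12, 0.14 and 0.05 against -0.14 to 0.02 on the others. The part of these cell types in the level of Ctss was not tested.

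Ifi30 encodes the lysosomal thiol reductase GILT, which opens disulfide bonds of antigens before loading. It read 10.83, 10.61, 11.03, 10.86 and 10.80 on the knockouts and 10.94, 10.91, 10.73, 10.96 and 10.86 on the controls. Knockout 2 and control 8 were the lowest arrays of their groups. Knockouts averaged 10.83 ± 0.15 and controls 10.88 ± 0.09 (SD, n = 5 each), a difference of -0.05 (SE 0.09; limma, adjusted p = 0.837). Over the arrays Ifi30 ran opposite to Ctss (r = -0.76, given without p). Knockout 2 was both the highest array of all for Ctss and the lowest for Ifi30, and the genes spanned only 0.41 and 0.42 log2 units. The SD over the 10 arrays exceeded that of 17.7% of all genes for Ctss and of 12.1% for Ifi30, against 95.9% for H2-Aa.

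**Figure D4:**
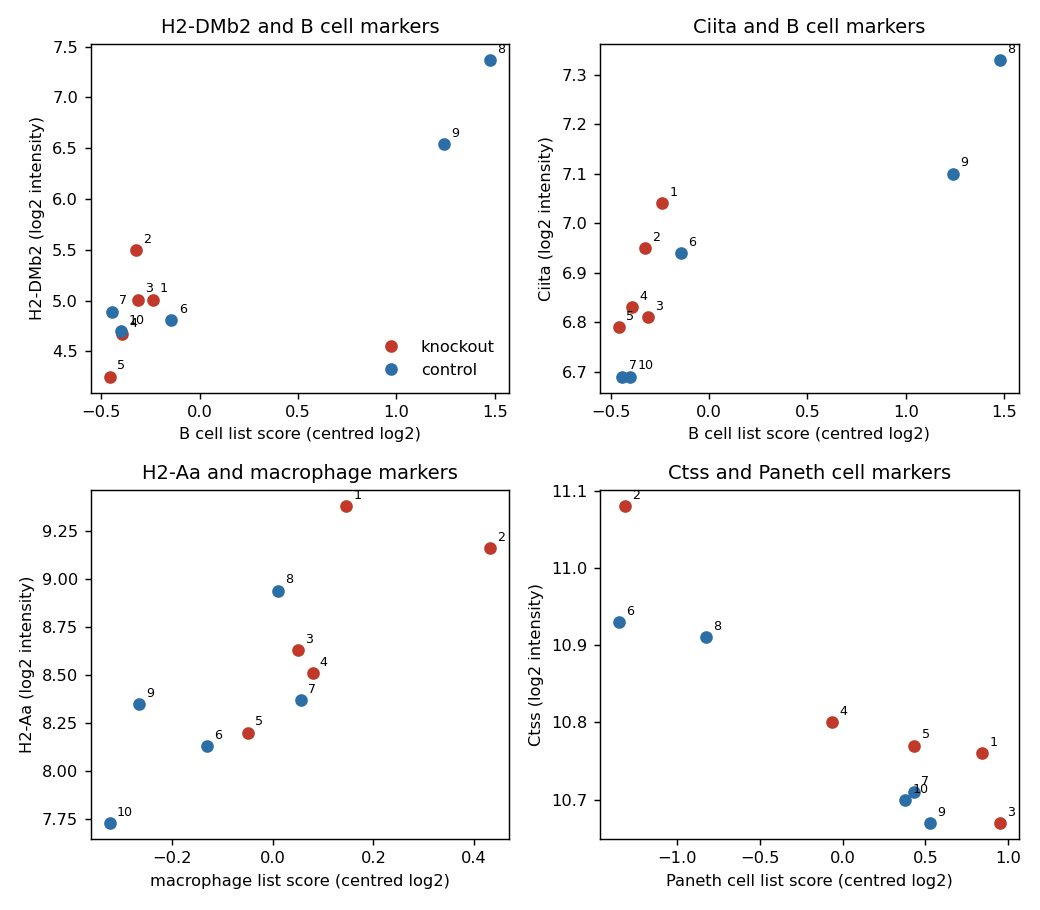
Log2 intensity of H2-DMb2, Ciita, H2-Aa and Ctss (vertical axes) against the score of a marker list (horizontal axes, mean centred log2 value), with 1 point per array, numbered, red for knockout and blue for control. Controls 8 and 9 stand alone at the right in both B cell panels, and Ctss is highest on the 3 arrays lowest in Paneth markers. H2-Aa tends to be higher where the macrophage score is higher, which did not pass after adjustment (Pearson r, permutation test, adjusted p = 0.0757).

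Genes around the class II pathway were examined in 6 further lists, in which 0 of 77 genes passed over all genes tested (limma, adjusted p under 0.05). At an unadjusted p under 0.05 the lists held 6 genes that were higher in knockouts, against 8.29% of all genes, and 4 that were lower, against 5.56%. Among factors that act on class II promoters, 0 of 10 passed, and the median log2 fold change was -0.003. Among subunits of the X box complex, Rfx5 was at 0.09, Rfxap at 0.01 and Rfxank at -0.18. The Y box subunit Nfyb was at 0.25 (SE 0.13) and the acetyltransferases Crebbp at -0.24 (SE 0.08), Kat2b at -0.18 (SE 0.13) and Ep300 at -0.15 (SE 0.08), with limma adjusted p between 0.214 and 0.569.

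Among endosomal proteases and genes of class II turnover 0 of 11 passed, with a median of 0.01. Legumain (Lgmn), an asparaginyl endopeptidase of the endosome, read 8.86, 9.06, 9.07, 8.93 and 8.81 on the knockouts and 8.49, 8.79, 8.57, 8.39 and 8.40 on the controls. Every knockout was above every control, narrowly for knockout 5 (8.81) over control 7 (8.79), and the difference was 0.42 (SE 0.10; limma, adjusted p = 0.129). Cathepsin Z (Ctsz) was likewise free of overlap, at 0.30 (SE 0.10, adjusted p = 0.206). Ctsh was at 0.20 (SE 0.15) and Sppl2a, the intramembrane protease that clears the invariant chain remnant, at 0.14 (SE 0.10). The macrophage score, which includes neither gene, was also higher on average in knockouts (0.13 against -0.13), and its part in these values was not tested.

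In the interferon gamma list 0 of 21 genes passed, with 14 positive and 7 negative values and a median of 0.09. Ido1, a tryptophan-degrading enzyme induced by interferon gamma, was the most negative: it read 6.97, 7.68, 6.68, 6.86 and 6.97 on the knockouts and 8.75, 7.83, 8.14, 7.99 and 7.87 on the controls. The groups did not overlap, and the difference was -1.08 (SE 0.21; limma, adjusted p = 0.111). Ido1 passed without knockout 2 (limma adjusted p = 0.0184) and with the Paneth score as a covariate (limma adjusted p = 0.0152), and in none of the other alternatives. Those 2 settings called 2.04% and 0.897% of all genes, against 0.0271% in the reported analysis. The receptor chain Ifngr1 was at 0.21 (SE 0.07, adjusted p = 0.230) with no overlap, the GTPase Irgm1 at 0.32 (SE 0.11) and Ifng itself at 0.22 (SE 0.10) from a mean log2 intensity of 4.56.

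Among 22 genes of MHC class I presentation 0 passed, with 11 positive and 11 negative values and a median of 0.01. The light chain B2m lay between 13.51 and 13.67 on every array. Pdia3, a chaperone of the peptide loading complex, was at 0.27 (SE 0.10, limma adjusted p = 0.252), H2-T24 at 0.30 (SE 0.14), the peptide transporter Tap1 at 0.33 (SE 0.18) and the proteasome activator subunit Psme1 at 0.11 (SE 0.08). Among 9 costimulatory molecules and co-inhibitory ligands (Cd274 and Pdcd1lg2) 0 passed and 8 were positive. Icosl, the ligand of ICOS, was the negative exception at -0.44 (SE 0.17, adjusted p = 0.273), and Cd274 (PD-L1) was at 0.31 (SE 0.18), Cd86 at 0.19 (SE 0.12) and Pdcd1lg2 at 0.14 (SE 0.12). Among the other class II chains and chaperones 0 of 4 passed: H2-Eb2 was at -0.69 (SE 0.28), H2-Ob at -0.33 (SE 0.25), H2-DMb1 at -0.10 (SE 0.13) and H2-Ea at 0.17 (SE 0.15).

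**Figure D5:**
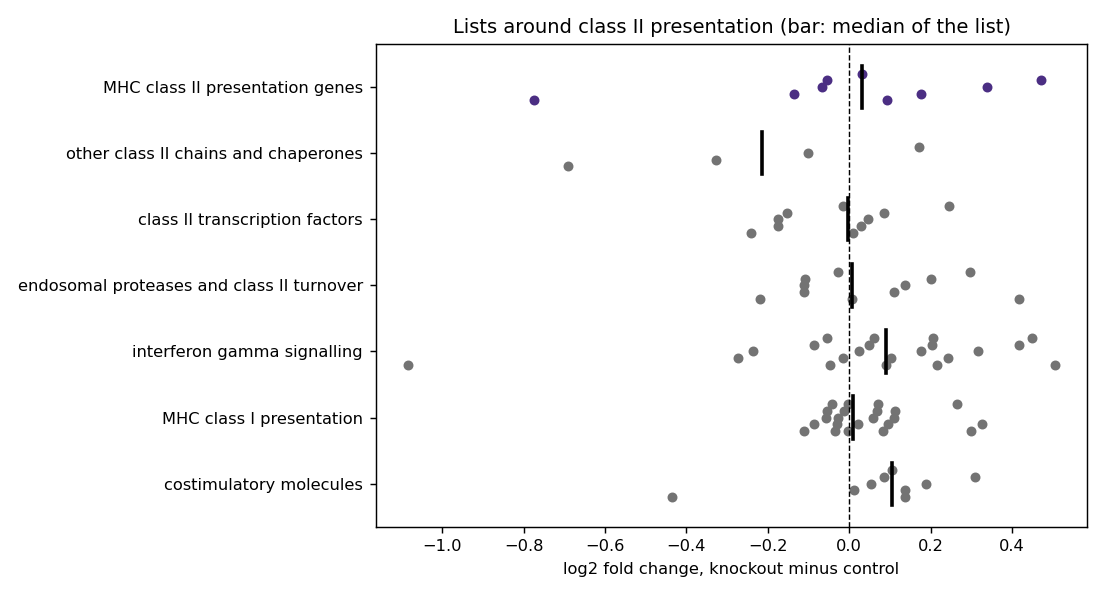
Log2 fold change, knockout minus control (horizontal axis), of every measured gene (points) of the class II presentation genes (purple) and of 6 lists around them (grey), with the median of each list as a black bar. The medians lie between -0.21 and 0.11, and Ido1 at -1.08 is the leftmost point.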

How the data were processed

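The authors summarised probe sets by RMA, using Expression Console 1.4.1.46 according to the submitters' processing notes, from 400 ng of total RNA per array, per the labels' protocols. The deposited values are intensities on the linear scale (1.88 to 15500.2), of which log2 was taken here. Which build and annotation the array design rests on is not given in the sources used here. Of 34472 probe sets, 23521 are annotated with 1 gene symbol, 1814 with several and 9137 with none. The probe set with the highest mean was kept where a gene had several (1082 genes), which left 22180 genes. Each measured member had 1 probe set.

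Groups came from sample titles. The test between them was limma's (version 3.58.1, R 4.3.3; lmFit, then eBayes; two-sided, 10 arrays), with Benjamini-Hochberg adjustment over all genes and a threshold of 0.05. Correlation tests were two-sided permutation tests, with 100000 resamples over 10 arrays and exact over 7 or 8. Scripts were tested on simulated data. Members and lists were chosen with earlier results of these data known. Named genes were the members, Pcyt1a, up to 4 genes of each pathway list with the smallest p, up to 3 of the highest markers of a list and the 8 genes most like the classical chains. Rfx5, Rfxap, Rfxank, B2m, Lct, Napsa, H2-M3, Cd40 and the genes like H2-DMb2 fall outside that rule, having been picked once their values were known. Alternatives changed scaling, the floor on low values, probe set choice, variance model, arrays and covariates. The number of arrays limits the precision.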

Additional observations from a re-analysis of the deposited data

Results flagged for a closer look

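Among 66 groups of 5 arrays screened (33 genes in knockouts and in controls), 5 held an array far from the other 4 by Dixon's criterion, and chance gives about 1 in 20. The only one among the class II presentation genes was H2-Oa on knockout 5, at 5.56 against 5.87 to 5.92 on the other knockouts. Knockout 2 was the far array for Kat2b (8.52 against 7.99 to 8.13), Sppl2a (10.28 against 9.97 to 10.04) and Pdcd1lg2 (6.08 against 5.53 to 5.67). Knockout 1 was the far array for Pdia3, at 11.44 against 11.11 to 11.20.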

How the results depend on the processing

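The number of class II presentation genes called was 0 in the reported analysis and in all 23 alternatives, and the lowest adjusted p of any of them in any alternative was 0.270 (limma, H2-Aa). Directions were less stable. Without controls 8 and 9, H2-DMb2 was at 0.088, H2-Oa at 0.22 and Ciita at 0.11, and with the B cell score as a covariate at 0.12, 0.21 and 0.13. With the macrophage score as a covariate H2-Aa was at -0.0255, H2-Ab1 at -0.10, H2-Eb1 at -0.13, H2-DMa at -0.10, Ctss at -0.11 and Ifi30 at 0.0554. Both scores differed on average between the groups, so these fits cannot part them from genotype. Ctss was at -0.0058 after quantile normalisation and at -0.0167 without control 7, control 9 and knockout 1. Leaving out each array in turn gave -0.28 to 0.0175 for H2-Oa, -0.131 to 0.029 for Ciita and -0.034 to 0.0685 for Ctss. For H2-Aa it gave 0.32 to 0.63, for H2-Ab1 0.15 to 0.51, for H2-Eb1 0.06 to 0.28, for H2-DMa 0.02 to 0.22, for H2-DMb2 -1.01 to -0.35 and for Ifi30 -0.11 to 0. Over all genes, 6 were called: 2 after median centring, after quantile normalisation, without controls 8 and 9, without control 7, control 9 and knockout 1, or with the B cell covariate, 10 after adding 16 before the log, and 199 with the Paneth covariate. Leaving out single arrays gave 2 to 452, the highest without knockout 2. The pathway lists held 0 called genes and 1 (Ido1) with the Paneth covariate, and 0 to 1 when single arrays were left out. The causes were not tested. No paired analysis was possible because knockouts and controls share no replicate numbers. With 5 arrays a group, the 95% interval of H2-DMb2 spanned -1.83 to 0.28.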
